A study of Mus musculus with 6 samples.

Results

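Transcripts of 8 surface ligands through which immune cells inspect other cells were examined in mouse hepatocytes, the metabolic cells of the liver. The members were taken by name and number 8 of the 32061 genes in the count table: Cd80, Cd86, Cd274, Ulbp1, Pvr, Nectin2, Cd47 and Icam1. The senescent group (3 samples) came from mice of genotype AhCre+Mdm2fl/fl and the healthy group (3 samples) from AhCre- mice, whose Mdm2 alleles the sources used here do not state. Both groups, aged 10 to 12 weeks, received β-naphthoflavone in corn oil at 20 mg/kg for 48 hours to induce Cre. AhCre is a Cre recombinase driven by a promoter responsive to aryl hydrocarbon receptor ligands, and Mdm2 encodes the ubiquitin ligase that holds p53 down. Carriage of Cre and loss of Mdm2 cannot be told apart in this design. Hepatocytes were freed by collagenase perfusion and purified on a density gradient, and since the labels do not tie samples to animals, the p-values reflect only how these samples vary, which may be technical.

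T cells and natural killer (NK) cells read such ligands with paired receptors. CD80 and CD86 engage CD28, which costimulates T cells, and CTLA-4, which restrains them, while PD-L1, the product of Cd274, engages the inhibitory receptor PD-1. MULT1, the product of mouse Ulbp1, engages NKG2D, an activating receptor of NK cells, and PVR (CD155) and nectin-2 engage the activating receptor DNAM-1 and the inhibitory receptor TIGIT. CD47 engages SIRPα on macrophages and restrains phagocytosis, and ICAM-1 binds the leukocyte integrins LFA-1 and Mac-1. CD80 and CD86 are best known from dendritic cells, macrophages and B cells.

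Senescent hepatocyte preparations held more transcript of the adhesion ligand gene Icam1, the costimulatory ligand gene Cd80 and the DNAM-1 ligand gene Pvr than healthy ones, by 4.68-fold, 46.4-fold and 2.14-fold. Nectin2, the other DNAM-1 ligand gene, and Cd47 were called lower, at 0.667-fold and 0.7-fold, when libraries were scaled so that most genes stayed level. With total library size both stayed below the healthy level but neither was called. Both calls were also lost in some fits with a single library left out. Neither Cd86 nor Cd274 passed the test, and Ulbp1, with 38 reads in senescent and 8 in healthy libraries, was too low to be tested. Of 7 members tested, 5 were called, 3 higher and 2 lower, while of all 12949 genes tested 41.1% were called, 20.4% higher and 20.7% lower. The groups did not overlap for 4 of the 7, with 3 above and 1 below the healthy range, beside 54.0% of all genes, 26.8% above and 27.2% below. Cd80 entered the test only through its senescent libraries and so had to differ. The median log2 fold change of the 7, with Cd80 included, was 1.1, beside 0.01 for all genes tested.

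To show the DNA next to the start sites of the members that moved, the 250 bases before the RefSeq start were read from build GRCm38.p6 for 2 members that were higher, Cd80 (chr16:38458683-38458932, plus strand) and Icam1 (chr9:21015690-21015939, plus strand), and for both members that were lower, Nectin2 (chr7:19749574-19749823, minus strand) and Cd47 (chr16:49855404-49855653, plus strand). Each is printed 5′ to 3′ on the strand of its gene, ends at the base before the start, and has matches to the motifs named below in capitals.
Cd80: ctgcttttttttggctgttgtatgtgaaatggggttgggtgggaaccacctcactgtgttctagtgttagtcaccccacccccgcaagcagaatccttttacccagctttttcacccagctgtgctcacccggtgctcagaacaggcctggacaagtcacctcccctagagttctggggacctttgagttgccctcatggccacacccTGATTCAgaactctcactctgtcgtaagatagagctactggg
Icam1: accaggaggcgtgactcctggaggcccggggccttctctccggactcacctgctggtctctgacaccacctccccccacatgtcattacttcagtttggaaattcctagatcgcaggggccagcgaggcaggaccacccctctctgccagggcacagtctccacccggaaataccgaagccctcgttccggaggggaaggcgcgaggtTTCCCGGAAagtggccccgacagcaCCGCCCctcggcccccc
Nectin2: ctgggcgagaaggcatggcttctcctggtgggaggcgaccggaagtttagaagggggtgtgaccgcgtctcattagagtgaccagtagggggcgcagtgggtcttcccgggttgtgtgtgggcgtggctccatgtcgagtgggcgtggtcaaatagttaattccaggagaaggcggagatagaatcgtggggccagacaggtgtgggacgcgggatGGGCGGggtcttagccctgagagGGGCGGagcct
Cd47: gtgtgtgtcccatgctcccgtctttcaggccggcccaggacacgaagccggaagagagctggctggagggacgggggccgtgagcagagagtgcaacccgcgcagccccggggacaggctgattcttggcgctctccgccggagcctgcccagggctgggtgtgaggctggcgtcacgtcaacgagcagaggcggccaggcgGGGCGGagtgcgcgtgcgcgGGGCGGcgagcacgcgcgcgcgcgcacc

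Such windows were found for 6 of the 8 members, Pvr and Cd86 being without an entry. Both strands were searched for AP-1 (TGANTCA), the interferon-gamma activated site or GAS (TTCNNNGAA), the TATA box (TATAAA) and the GC box (GGGCGG), and by consensus for the p53 decamer, the NF-kappaB site and the core of the interferon-stimulated response element (ISRE). Cd80 held TGATTCA from 42 to 36 bases before its start, a match to the AP-1 pattern as searched, in which the central base was free. That loose pattern was present in 6.75% of 32851 such windows, and a stricter one was not searched. Icam1 held a GAS match, TTCCCGGAA, from 42 to 34 bases before its start, present in 7.02% of windows, and a GC box, present in 32.7%. Nectin2 and Cd47 each held 2 GC boxes, Cd274 held 1, and the Ulbp1 window held no match to any of these motifs. No match to the searched letters of the p53 decamer (in 7.13% of all windows), the NF-kappaB site (3.9%), the ISRE core (2.98%) or the TATA box (12.4%) was found in these 6 windows. The NF-kappaB consensus searched opens with GGG, so variants of it were not counted, such as TGGAAATTCC in the Icam1 window. An absence of NF-kappaB sites cannot be read from this search. The Cd80 window was the poorest of the 4 printed in CG dinucleotides, with 3, against 15 for Icam1, 16 for Nectin2 and 30 for Cd47, where the median window had 6. The Cd80 window lies in an intron of a longer Cd80 transcript of GENCODE release M21. In that release the printed Cd47 window also lies inside its gene and holds up to 21 exonic bases of a Cd47 transcript. The Ulbp1 window holds up to 161 exonic bases of a Ulbp1 transcript. The Cd274 window holds up to 185 exonic bases of a transcript of Plgrkt, a gene on the opposite strand. These matches describe letters only, and binding was not measured.

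Library totals were 29992707 to 32210591 counts for senescent hepatocytes and 28799392 to 33267299 counts for healthy ones. Mdm2 and the p53 target Cdkn1a, which encodes the cell cycle inhibitor p21, were 22.4-fold and 20.2-fold higher in senescent libraries (edgeR adjusted p = 2.5e-07 and 6.1e-05), and since the deleted part of Mdm2 is not given, its count does not check the deletion. All 9 hepatocyte markers were tested, and they summed to 65800 to 78900 CPM in senescent and 117000 to 133000 CPM in healthy libraries, with 7 lower and 0 higher. The 12 macrophage markers summed to 242 to 488 CPM in senescent and 98.2 to 267 CPM in healthy libraries, with 2 higher (6 with total library size or DESeq2, and 0 without senescent replicate 3) and 0 lower. The 9 T and NK cell markers summed to 0.554 to 0.949 CPM against 0.212 to 0.977 CPM, and 4 B cell markers to 0.495 to 1.01 CPM against 0.212 to 0.7 CPM, and none of these passed the low-count filter. The 5 neutrophil markers summed to 2.97 to 3.76 CPM against 0.53 to 1.28 CPM (3 of 3 tested higher, all 3 past the low-count filter only through senescent libraries), 9 stellate cell and fibroblast markers to 26.1 to 39 against 10.4 to 17.2 CPM (4 of 8 higher), and 7 cholangiocyte markers to 19.8 to 26.8 against 15.5 to 23.8 CPM (2 higher and 1 lower of 5, of which Krt19, higher, passed that filter only through senescent libraries). The part of these cells in the members' levels was not tested. In bulk samples, fewer cells of a type and less RNA per cell cannot be told apart. Levels are in CPM, the count scaled by the TMM-corrected library size, with means ± SD over n = 3 in each group. Single values follow the order of replicates 1, 2 and 3. A log2 fold change is senescent over healthy, with its SE, and a pair of numbers in parentheses after the first test of a gene is a log2 fold change and its edgeR adjusted p.

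**Figure D1:**
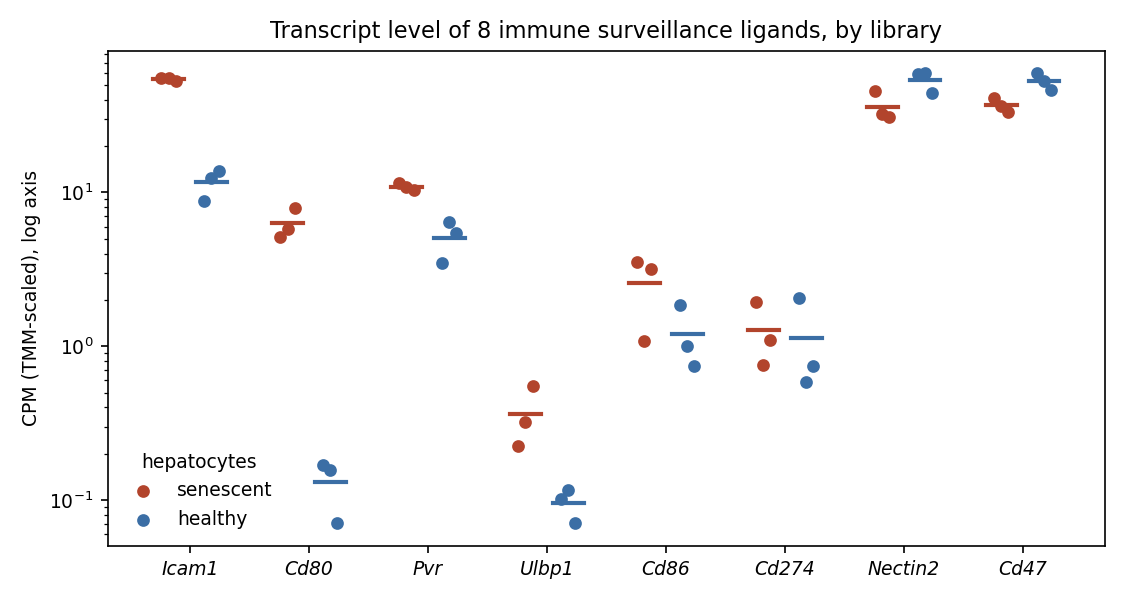
CPM on a log axis of each of the 8 members in 3 senescent (left of each pair) and 3 healthy libraries, with points for libraries and bars for group means. Icam1, Cd80, Pvr and Ulbp1 lie higher in every senescent library, Cd47 lower, and the groups overlap for Cd86, Cd274 and Nectin2.

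Cd80 (ENSMUSG00000075122; GRCm38 chromosome 16, 38455561 to 38496335, plus strand) was all but silent in healthy hepatocytes. It had 5.13, 5.8 and 7.93 CPM in the senescent libraries, from 184, 199 and 274 counts, and 0.168, 0.156 and 0.0707 CPM in the healthy libraries, from 5, 4 and 2 counts. Every senescent library lay far above every healthy one. The log2 fold change was 5.54 ± 0.36, with a 95% interval of 4.73 to 6.35 (edgeR, p adjusted after Benjamini and Hochberg = 1e-05). It ran from 5.24 to 5.85 over 13 other settings and was called in each, though Cd80 entered the main test only through its senescent libraries.

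Cd86 (ENSMUSG00000022901; chromosome 16, 36603869 to 36666081, minus strand), the other B7 costimulatory ligand gene, had 3.52, 1.08 and 3.16 CPM in the senescent libraries, and 1.85, 1.01 and 0.742 CPM in the healthy libraries. Senescent replicate 2 lay among the healthy libraries, and the remaining pair lay above all of them. Its log2 fold change of 1.1 ± 0.49 did not pass (edgeR adjusted p = 0.11), and its 95% interval ran from 0.975-fold to 4.68-fold. Cd86 was called without senescent replicate 2 (log2 fold change 1.51, edgeR adjusted p = 0.019) and with total library size (1.42, 0.046). Per exonic length, Cd80 stood at 1.44, 5.32 and 2.49 times Cd86 in the senescent libraries, and at 0.0899, 0.152 and 0.0942 times in healthy ones. This ratio was formed after the values were seen and has no test, but it does not depend on how libraries are scaled.

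Cd274 (ENSMUSG00000016496; chromosome 19, 29367455 to 29388095, plus strand), which encodes PD-L1, had 1.95, 0.758 and 1.1 CPM in the senescent libraries, and 2.05, 0.584 and 0.742 CPM in the healthy libraries. The groups overlapped throughout, and the highest value of all was that of healthy replicate 1. Its log2 fold change was 0.16 ± 0.54 (edgeR adjusted p = 0.83), and a change anywhere within its 95% interval, 0.48-fold to 2.61-fold, could not be told from none. The sign turned without senescent replicate 1 (-0.25), healthy replicate 2 (-0.15) or healthy replicate 3 (-0.07), and without healthy replicate 1 the value was 0.93 (edgeR adjusted p = 0.17).

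**Figure D2:**
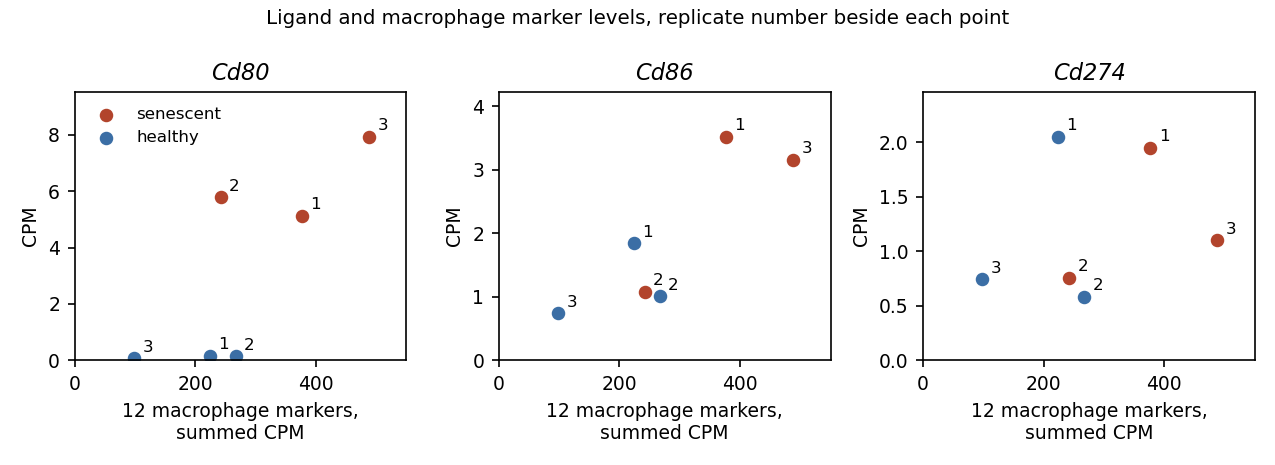
CPM of Cd80, Cd86 and Cd274 (vertical axes) against the summed CPM of 12 macrophage markers (horizontal axes) in 3 senescent and 3 healthy libraries, each point bearing its replicate number. Cd80 lies between 5.13 and 7.93 CPM in senescent and between 0.0707 and 0.168 CPM in healthy libraries, and the groups overlap for Cd86 and Cd274.

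Antigen-presenting cells also express these 3 genes, and their markers are given beside them. The macrophage markers summed to 377, 242 and 488 CPM in the senescent libraries, and 224, 267 and 98.2 CPM in the healthy libraries. Per 100 CPM of macrophage markers, Cd80 had 1.36, 2.4 and 1.62 CPM in senescent replicates, against 0.0753, 0.0583 and 0.072 CPM in healthy ones, without overlap. For Cd86 that ratio was 0.932, 0.446 and 0.646 against 0.828, 0.379 and 0.756, and for Cd274 it was 0.518, 0.314 and 0.225 against 0.918, 0.219 and 0.756, with the groups overlapping in both. The ratios were chosen after the values were seen and have no test. The 9 dendritic cell markers summed to 14.7 to 15.8 CPM in senescent and 5.44 to 19.9 CPM in healthy libraries. Of these, 5 were tested and 1 was called higher, Zbtb46, a transcription factor gene, at 4.36 ± 0.394 against 2.97 ± 0.0934 CPM. Without senescent replicate 1, healthy replicate 2 or healthy replicate 3, and with no filter, 0 of the list were called. The part of these cells in the levels of Cd80, Cd86 and Cd274 was not tested.

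Ulbp1 (ENSMUSG00000079685; chromosome 10, 7440362 to 7473638, minus strand) was the least abundant member. It had 8, 11 and 19 counts in the senescent libraries, or 0.223, 0.321 and 0.55 CPM, and 3, 3 and 2 counts, or 0.101, 0.117 and 0.0707 CPM, in healthy ones. All senescent libraries lay above all healthy ones, at levels of a few reads. The scaled ratio of summed reads was 3.8, with an exact 95% counting interval of 1.74 to 9.42. That interval covers counting error alone, as PCR copies are not separate molecules. An exact permutation test over samples, two-sided, gave p = 0.1, the smallest that 3 against 3 samples allow. Ulbp1 was called when no filter was applied (log2 fold change 1.88 ± 0.66, edgeR adjusted p = 0.043) and when senescent replicate 1 was left out (2.17, 0.026). In the latter fit it passed the low-count filter only through its senescent libraries. It was also tested, and not called, with DESeq2 and without healthy replicate 1, 2 or 3.

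Other NKG2D ligand genes were read beside it. Of 8 listed, 4 were analysed and 2 were tested, with 1 lower and 0 higher, a split that became 0 lower and 1 higher with total library size. Raet1e, not called, had 6.89 ± 0.316 CPM in senescent and 4.48 ± 1.39 CPM in healthy libraries (log2 fold change 0.62 ± 0.22, edgeR adjusted p = 0.052). The groups did not overlap for Raet1e. It was also called higher with DESeq2, limma-voom, no filter, a filter at mean 1 CPM and the replicate block, and without healthy replicate 1. Raet1d, a RAE-1 family gene, had 4.17 ± 1.4 CPM in senescent and 7.31 ± 0.812 CPM in healthy libraries, a log2 fold change of -0.81 ± 0.24 (edgeR adjusted p = 0.027). Its call was lost with total library size (-0.49, 0.14) and on leaving out senescent replicate 2 (-0.57, 0.096), senescent replicate 3 (-0.72, 0.12), healthy replicate 1 (-0.76, 0.063) or healthy replicate 3 (-0.78, 0.053). RAE-1 genes are near-identical copies, so the split of reads among them is uncertain. H60c had 0 counts in all libraries, which allows up to 3 counts, or 0.0902 to 0.104 CPM, in each.

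Pvr (ENSMUSG00000040511; chromosome 7, 19903578 to 19921160, minus strand) had 11.6, 10.8 and 10.3 CPM in the senescent libraries, and 3.47, 6.38 and 5.41 CPM in the healthy libraries. The senescent libraries were close together, with a coefficient of variation of 6.03% against 29.1% in healthy ones, and all lay above the healthy range. The log2 fold change was 1.1 ± 0.21 (edgeR adjusted p = 0.0041), ran from 0.88 to 1.41 over 13 other settings and was called in each.

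Nectin2 (ENSMUSG00000062300; chromosome 7, 19716644 to 19750483, minus strand) had 45.5, 32.2 and 30.9 CPM in the senescent libraries, and 59.1, 59.5 and 44.2 CPM in the healthy libraries. The groups touched, with senescent replicate 1 just above healthy replicate 3. Its log2 fold change was -0.58 ± 0.18 (edgeR adjusted p = 0.031), but it did not pass with total library size (-0.27, 0.25). Leaving out senescent replicate 2 (-0.46, 0.13), senescent replicate 3 (-0.44, 0.15), healthy replicate 1 (-0.52, 0.078) or healthy replicate 2 (-0.52, 0.099) also ended the call. Within a library and per exonic length, Pvr stood at 0.145, 0.191 and 0.19 of Nectin2 in the senescent libraries, and 0.0335, 0.0612 and 0.0699 in healthy ones. That ratio, formed after the values were seen and given without a test, shows an unequal change of the 2 ligand genes that no scaling can alter.

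**Figure D3:**
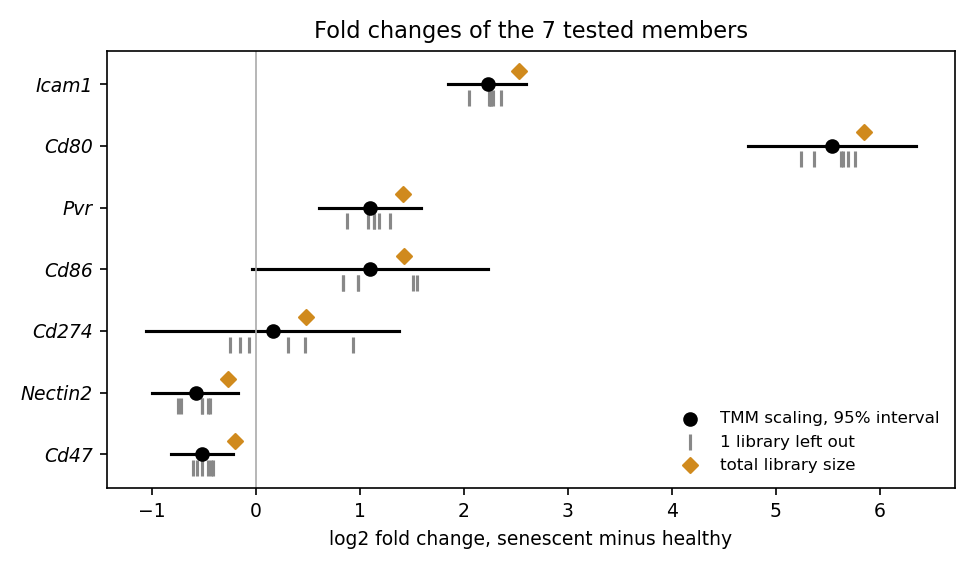
Log2 fold change of the 7 tested members, with black points and lines for TMM scaling and its 95% interval, grey ticks for fits with 1 library left out, and diamonds for total library size. Icam1, Cd80 and Pvr stay above 0 throughout, Nectin2 and Cd47 stay below 0 but lie nearer to it with total library size (-0.27 and -0.2), and the ticks of Cd274 lie on both sides of 0.

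The other nectin and nectin-like genes moved in both directions. Of 6 tested, 2 were higher (3 with total library size) and 1 lower, with a median log2 fold change of 0.54. With a filter at a mean of 1 CPM, 4 were tested, 1 higher and 1 lower, and the median was 0.01. Cadm3, not called in the main test, passed the low-count filter only through its senescent libraries. Nectin1, which encodes an adherens junction protein, had 109 ± 10.8 CPM in senescent and 59.3 ± 14.2 CPM in healthy libraries (log2 fold change 0.88 ± 0.18, edgeR adjusted p = 0.0047). Nectin4, counted among the 2, had 17, 11 and 31 counts in senescent libraries against 3, 3 and 0 counts in healthy ones. It passed the low-count filter only through its senescent libraries and so had to differ, and it was not called without senescent replicate 3 (2.45, 0.059). Nectin3, whose product pairs with nectin-1 and nectin-2, fell to 30.6 ± 0.942 CPM in senescent libraries, against 54.6 ± 1.59 CPM in healthy ones (-0.83 ± 0.10, edgeR adjusted p = 0.00033), and stayed called with total library size (-0.52, 0.005).

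Cd47 (ENSMUSG00000055447; chromosome 16, 49800533 to 49915010, plus strand) had 40.9, 36.4 and 33.6 CPM in the senescent libraries, and 59.6, 52.7 and 46.3 CPM in the healthy libraries. All senescent libraries lay below all healthy ones. The log2 fold change was -0.52 ± 0.13 (edgeR adjusted p = 0.014), a fall to 0.7 of the healthy level with a 95% interval of 0.568 to 0.861. The call was lost with total library size (-0.2, 0.23) and without senescent replicate 2 (-0.46, 0.062) or 3 (-0.41, 0.083). Of 6 other genes of the CD47 axis, 2 were higher (4 with total library size) and 0 lower, with a median log2 fold change of 1.12. Of these, Cd24a and Thbs1, not called in the main test, passed the low-count filter only thanks to their senescent libraries. With a filter at a mean of 1 CPM, 4 were tested, 2 higher and 0 lower, and the median was 0.66. Qpctl, whose enzyme makes the pyroglutamate at the start of CD47 that SIRPα binds, had 33 ± 2.79 CPM in senescent and 14.3 ± 0.702 CPM in healthy libraries (1.21 ± 0.11, edgeR adjusted p = 8.7e-05). Sirpa, the receptor gene known from macrophages, had 10.3 ± 3.63 against 4.99 ± 1.73 CPM (1.04 ± 0.34, 0.039). Its call was lost in 7 settings, with adjusted p from 0.05 to 0.12, among them each fit without senescent replicate 1 (1.05, 0.074) or 3 (0.82, 0.12), and without healthy replicate 2 (adjusted p 0.065) or 3 (0.77, 0.075). The macrophage marker sum was highest in the same senescent library, replicate 3, and lowest in the same healthy one.

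Icam1 (ENSMUSG00000037405; chromosome 9, 21015985 to 21028817, plus strand) was the most abundant of the members that rose. It had 55.4, 55.2 and 52.8 CPM in the senescent libraries, and 8.83, 12.4 and 13.8 CPM in the healthy libraries. The senescent libraries differed among themselves by a coefficient of variation of 2.66%, against 21.8% in healthy ones, and none came near the healthy range. The log2 fold change was 2.23 ± 0.16, with a 95% interval of 1.85 to 2.6 (edgeR adjusted p = 2.1e-05), and it ran from 2.05 to 2.53 over 13 other settings and was called in each. Of Icam1's 4360 exonic bases, 511 are shared with a gene on the opposite strand, as are 511 of 3622 for Cd274 and 135 of 3494 for Nectin2. By symbol, each of these opposite-strand genes had 0 rows in the count table. Whether reads were counted by strand is not stated in the sources used here, so reads in the shared stretches are uncertain.

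Most other leukocyte adhesion genes that could be tested also rose. Of 12 listed and 6 tested, 5 were higher (among them Cd48, which passed the low-count filter only through its senescent libraries) and 0 lower, with a median log2 fold change of 1.33, and they summed to 261 to 312 CPM in senescent and 119 to 124 CPM in healthy libraries. Alcam, which encodes the CD6 ligand CD166, had 113 ± 25.3 CPM in senescent and 36.9 ± 6.47 CPM in healthy libraries (1.61 ± 0.20, edgeR adjusted p = 0.00037). F11r, which encodes the junction protein JAM-A, had 147 ± 16.3 against 75.9 ± 9.43 CPM (0.95 ± 0.14, edgeR adjusted p = 0.00087). Among 9 endothelial markers, which summed to 107 to 139 CPM against 95.8 to 117 CPM, 1 was higher (5 with total library size), and the part of endothelial cells in these adhesion genes was not tested.

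**Figure D4:**
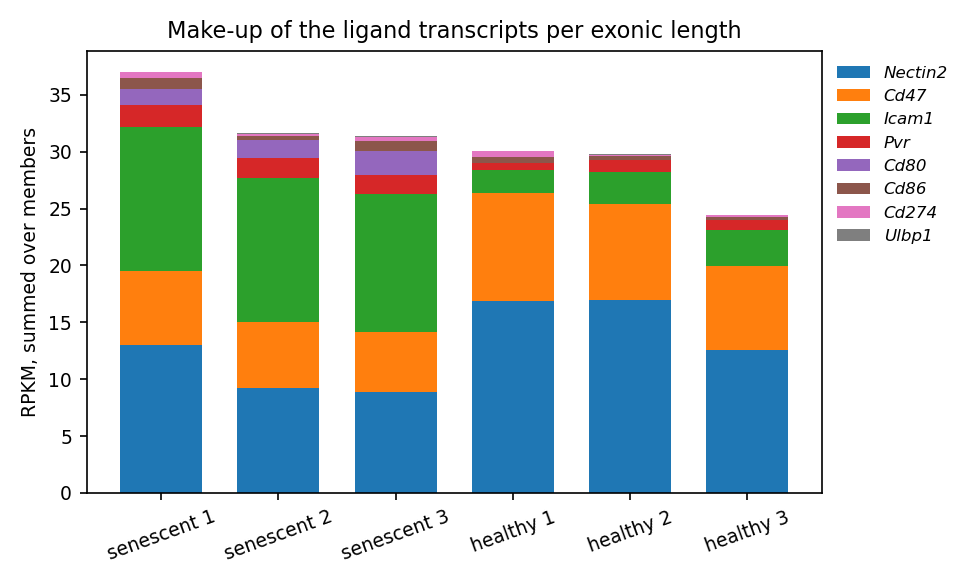
RPKM (CPM per kilobase of exon) of the 8 members, stacked for each of 3 senescent (left) and 3 healthy libraries. Icam1 makes up 37.5% of the mean sum in senescent and 9.5% in healthy libraries, while Nectin2 makes up 31.1% and 55.2%.

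Per exonic length, the order of the members differed between the groups. In senescent libraries Icam1 led with 12.5 ± 0.332 RPKM, followed by Nectin2 with 10.4 ± 2.31, and these 2 ranges overlapped. Cd47 came next with 5.89 ± 0.588 RPKM, and then Pvr with 1.78 ± 0.107 and Cd80 with 1.7 ± 0.395, which overlapped each other. In healthy libraries Nectin2 led with 15.5 ± 2.5 RPKM, followed by Cd47 (8.42 ± 1.06), Icam1 (2.67 ± 0.583) and Pvr (0.831 ± 0.242), and none of these ranges overlapped its neighbour's. Cd86 had 0.706 ± 0.359 RPKM in senescent and 0.328 ± 0.158 RPKM in healthy libraries and overlapped Cd274 in both groups, at 0.351 ± 0.17 and 0.311 ± 0.223 RPKM. Ulbp1 was last in both, with 0.0542 ± 0.0249 and 0.0143 ± 0.00348 RPKM. Among all tested genes Icam1 stood at the 79.8th percentile of RPKM in senescent and the 48.4th in healthy libraries, and Cd80 at the 36.6th and the 1.95th. Summed over the 8 members, the level was 31.4 to 37 RPKM in senescent and 24.5 to 30.1 RPKM in healthy libraries.

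Genes of related function were read to place the members. Of 17 other checkpoint and costimulatory ligand genes, 9 were tested, with 3 higher, 1 lower and a median log2 fold change of 0.06. With total library size, 4 were higher and 0 lower. Icosl, which encodes the ligand of the T cell costimulator ICOS, had 24, 29 and 18 counts in senescent libraries against 6, 8 and 4 counts in healthy ones. Counted among the 3, it too passed the low-count filter only through its senescent libraries, and its call was lost without senescent replicate 2 (1.49, 0.056) or healthy replicate 3 (1.4, 0.051). Lgals3, the galectin-3 gene, known also from macrophages, had 4.33 ± 2.02 against 1.82 ± 0.388 CPM (1.25 ± 0.37, 0.026). Its call was lost without senescent replicate 1 (1.27, 0.052) or 3 (0.92, 0.098), and without healthy replicate 1 (1.31, 0.054), 2 (1.35, 0.057) or 3 (1.08, 0.071), and limma-voom did not call it (log2 fold change 1.15, adjusted p = 0.062). Lgals9, the galectin-9 gene, whose product binds TIM-3, had 427 ± 32.2 against 582 ± 41.4 CPM (-0.45 ± 0.13, 0.026). It was not called with total library size (-0.14, 0.38) or without senescent replicate 1 (-0.44, 0.071), 2 (-0.45, 0.079) or 3 (-0.35, 0.13) or healthy replicate 2 (-0.41, 0.076). Tnfsf4, Cd70 and Btn2a2 had 0 counts in all libraries.

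Of 12 genes for receptors of the ligands, 3 were tested, all integrin genes, and 2 were higher: Itgb2 at 8.21 ± 2.93 against 3.44 ± 1.26 CPM (1.26 ± 0.35, edgeR adjusted p = 0.021) and Itgal at 10.4 ± 2.71 against 5.11 ± 1.83 CPM (1.02 ± 0.30, 0.027). Together they encode LFA-1, the receptor of ICAM-1 on leukocytes. Both calls were lost without senescent replicate 3 (1.01, 0.067 and 0.9, 0.086), and that of Itgal also without senescent replicate 1 (1, 0.057). Macrophage marker sums, given above, were likewise highest in senescent replicate 3, and their part was not tested. Pdcd1 and Tigit, which encode PD-1 and TIGIT, had 0 counts in all 6 libraries, and Klrk1, which encodes NKG2D, had 0.323 ± 0.107 CPM in senescent and 0.253 ± 0.13 CPM in healthy libraries.

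Interferon-gamma and NF-kappaB signalling are known to induce Icam1 and Cd274. A list of these pathways, which also held Cmtm6 and Cmtm4, was read. Of its 19 genes tested, 4 were higher and 0 lower (8 and 0 with total library size), with a median log2 fold change of 0.15. Among all genes tested, 20.4% were higher and 20.7% lower in the main test, so the higher count lay near the general share. Ifngr2, a chain of the interferon-gamma receptor, had 37.5 ± 2.27 CPM in senescent and 13.4 ± 1.69 CPM in healthy libraries (1.48 ± 0.13, edgeR adjusted p = 5.1e-05). Rela, the NF-kappaB subunit gene, had 76.8 ± 1.95 against 46.6 ± 4.75 CPM (0.72 ± 0.11, edgeR adjusted p = 0.0014). Irf1, an interferon response factor gene, had 21.8 ± 6.19 against 22.5 ± 7.63 CPM and Nfkbia, an NF-kappaB feedback inhibitor gene, 34.1 ± 6.19 against 32.2 ± 9.19 CPM, and neither passed. Nfkbia and Irf1 were picked after their values were seen.

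**Figure D5:**
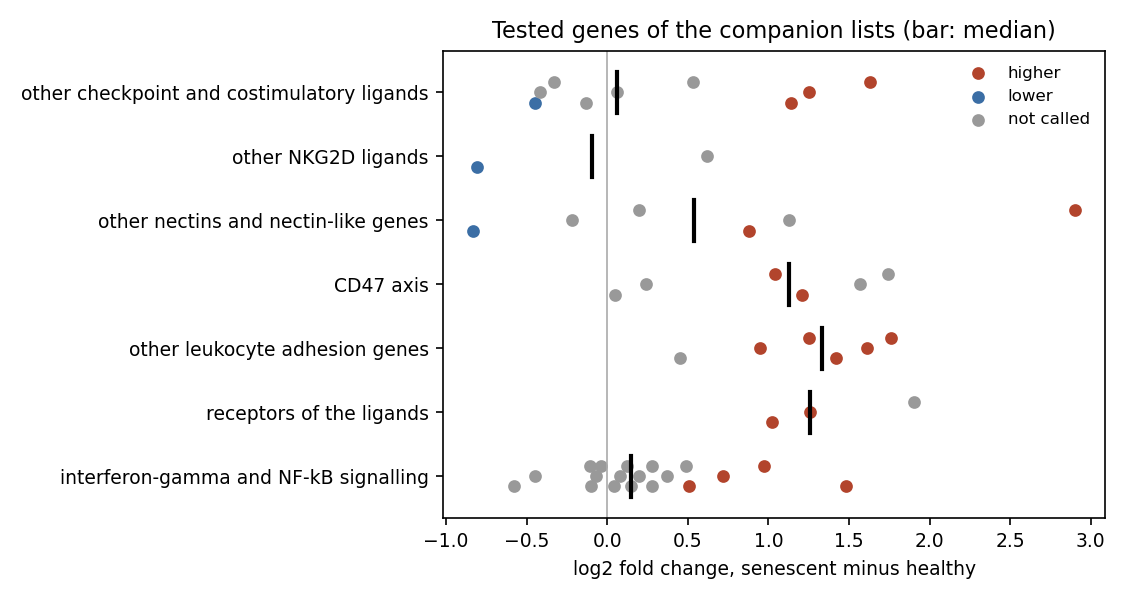
Log2 fold change (senescent minus healthy) of the tested genes in 7 companion lists, coloured by their edgeR call, with a bar at each list's median. The adhesion list has 5 of 6 genes called higher, while the 19 genes of the interferon-gamma and NF-kappaB list have a median of 0.15.

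Genes whose profile over the 6 libraries lay nearest to each member's were found by the root mean square distance of centred log2 CPM, among 10746 genes of at least 1 CPM. Nearest to Cd80 were Map3k9, Ggta1 and Cxcl14, at distances of 0.12, 0.15 and 0.17 log2 units. Nearest to Icam1 were Susd6, Cpne2 and Frrs1, at 0.092, 0.11 and 0.13, and nearest to Pvr were Crtc3, Ehbp1 and the adhesion gene Jam2, at 0.083, 0.087 and 0.11. Cd86 lay nearest to Lpl, Apbb1ip and Oxct1, at 0.19, 0.19 and 0.22, and Cd274 to Slc16a5, H2-M3 and Tlr12, at 0.22, 0.24 and 0.25. Nectin2 lay nearest to Rnf8, Comtd1 and Tdrkh, at 0.05, 0.066 and 0.072. Among the genes near Cd47 were Lifr and Lamtor2, at 0.032 and 0.039. The profiles of Cd47 and Nectin2 were common, with 1677 and 744 genes within 0.2 log2 units, whereas 19 genes lay that near to Icam1 and 3 to Cd80. All such profiles include the difference between the 2 groups, and the distances are given as a description.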

How the data were processed

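Polyadenylated RNA was sequenced in 3 senescent and 3 healthy hepatocyte samples. The authors deposited 1 table of raw read counts per gene. Per the submitters' processing notes, the tools named are STAR 2.7.1a, cutadapt 1.16, DESeq2 1.34.0, featureCounts, FastQC and MultiQC 1.3, and the build is GRCm38. The sources used here give neither annotation release nor strand setting. The column taken as healthy replicate 2 differs by 1 letter from that sample's code, and results without it are given. Symbols matched 31976 IDs (99.7%). Exonic lengths came from GENCODE M21.

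Genes were tested with edgeR 4.0.16 (R 4.3.3), quasi-likelihood F test, after filterByExpr (minimum count 10, total 15) and TMM scaling, with Benjamini-Hochberg adjustment across 12949 genes and a threshold of 0.05. The TMM factors were 1.07 to 1.15 in senescent and 0.893 to 0.909 in healthy libraries. Alternatives were DESeq2 1.42.0, limma-voom 3.58.1, other scalings and filters, the replicate number as a block, and each library left out. The tests were tried on simulated counts. Chi-square statistics of every pair of libraries were at least 38.2 times their degrees of freedom, so no library was a second copy.

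The members and lists were chosen with earlier results of these data known. Each companion list gave the 2 called genes with the smallest p in either direction, or its 2 most abundant genes if it had no call. Other companion genes named were picked after their values were seen. One gene with a profile near that of Cd47 is not reported here.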

Additional observations from a re-analysis of the deposited data

How the results depend on the processing

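Over 13 alternatives, the calls of Cd80, Icam1 and Pvr were kept in every one, and 3 or 4 members were called higher. Cd80 entered the main test only through its senescent libraries, so its kept calls are no separate support. The calls of Nectin2 and Cd47 were lost in 5 and 3 of them. Scaled by total library size instead of TMM, the median gene had a log2 fold change of 0.33 against 0.01, 4847 genes were called higher and 1282 lower, against 2645 and 2675 with TMM, and 0 members were called lower. In that edgeR fit Nectin2 and Cd47 had unadjusted p of 0.17 and 0.16, so 0 members were lower at an unadjusted p under 0.05, while DESeq2 and limma-voom, scaled by size factors and TMM, called both lower. With single libraries left out, 0 to 2 members and 1515 to 2763 of all genes were called lower, with the fewest genes without senescent replicate 3, and the log2 fold change of Cd274 ran from -0.25 to 0.93. The cause was not tested. The replicate numbers showed no steady pairing: deviations of same-numbered libraries from their group means correlated at 0.23, -0.17 and -0.04. Those of differently numbered libraries ran from -0.33 to 0.38. With 3 libraries in each group, centred on their own mean, such correlations cannot exclude a pairing. With the replicate block, 3 members were called higher and 2 lower, and 2565 and 2602 of all genes, while Lgals3 (adjusted p 0.061), Sirpa (0.1), Itgb2 (0.066) and Itgal (0.061) were not called, nor was any dendritic cell marker. For the 15 companion genes and Mdm2 and Cdkn1a, 187 values kept their direction and side of the threshold and 32 lost the call. Depth limits Ulbp1 (2 to 19 counts a library) and Cd80 in healthy libraries (2 to 5).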
